A study of Mus musculus with 24 samples.

Results

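Ep300, Crebbp, Kat5, Kat6a, Kat6b, Kat7, Kat8 and Hat1 encode 8 histone acetyltransferases other than the KAT2 enzymes, and they were taken as a list of named genes out of 21755 protein-coding genes of GENCODE vM21 on chromosomes 1 to 19 and X (GRCm38). For each gene, the acetylation of lysine 9 of histone H3 (H3K9ac) at its own promoter was read from 12 deposited peak lists. A promoter window reached 1 kb to either side of an annotated start of transcription (TSS), and a gene was called in a library when a peak overlapped one of its windows. All 8 genes were called in 12 of 12 libraries, against 10777 of the 21755 genes (49.5%), and the comparisons below were made among those 10777 genes.

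The libraries came from 4T1 cells, a mouse breast cancer line, grown as 3D spheroids and collected after 5 days. Of the 4 groups of 3 libraries each, the scramble, CPT1a knockout and KAT2a knockout spheroids received 75 µM palmitate, and a further CPT1a knockout group received 5 mM acetate. The sample description does not say whether palmitate was present there, while a figure legend of the study places palmitate in the CPT1a knockout cultures both with acetate and without. In the study's methods every line carried a doxycycline-inducible Cas9 vector and a lentiviral guide RNA with puromycin resistance, the scramble guide being a non-targeting one against EGFP, and guides were made against 2 exons of each gene, the labels not saying which guide a library carried. The study's statistics section speaks of at least 3 biological replicates, and its H3K9ac legend gives n = 3. Neither these nor the labels say that same-group libraries came from separate clones or cultures, so p-values measure the spread between these libraries. CPT1a brings long-chain fatty acids into mitochondria and KAT2a is the GCN5 acetyltransferase. The comparisons address whether their loss, or acetate, moves H3K9ac at these genes.

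Histone acetyltransferases transfer the acetyl group of acetyl-CoA to lysines, which loosens chromatin and gives bromodomain proteins a binding site. p300 and CBP are large co-activators with wide substrate range, the MYST enzymes (Kat5, Kat6a, Kat6b, Kat7 and Kat8) work in multi-subunit complexes on H3 or H4, and HAT1 acetylates newly made H4 before it enters chromatin. H3K9ac itself marks the promoters of active genes and flanks their start sites. It is not a measure of the enzyme, its mRNA or its activity.

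A library's peaks carry a deposited fold enrichment, the pileup of fragments at the summit over the local background. It is not scaled between libraries, so each gene's strongest promoter peak was placed as a percentile within its own library, over the 10777 genes, where 100 is the strongest. The lists differed in ways that follow the groups: scramble lists held 29176 to 34370 peaks of median width 585 to 686 bp, and the other 9 held 16212 to 24639 peaks of 816 to 1147 bp. The calling depth recovered from the lists, the background pileup at most peaks, was 1.87 to 2.52 in scramble and 0.554 to 1.91 in the others. Peak number, width and group cannot be told apart here, and their part in the results below was not tested. Of 12 mammary epithelial marker genes 9 had a promoter peak in all 12 libraries, Esrp1 had one in 10, Krt14 in 3 and Krt5 in 0, and all 7 blood and endothelial markers had one in 0 libraries.

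The promoter sequences of 4 of the genes are shown because the peaks differ there: the gene whose rank differed between groups (Kat5), a gene of high and one of low rank (Kat7 and Kat8), and the start cluster that carries the peak in Kat6b. They are the stretches of the 250 bases before a RefSeq start (GRCm38.p6) that no annotated exon covers. Capitals mark a GC box (GGGCGG) or a CCAAT box (CCAAT) on either strand, and matches that overlap were counted separately.
Kat5, chr19:5610238-5610344, minus strand: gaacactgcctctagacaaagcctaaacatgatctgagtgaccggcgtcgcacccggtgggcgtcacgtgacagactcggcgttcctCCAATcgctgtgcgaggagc
Kat7, chr11:95310247-95310428, minus strand: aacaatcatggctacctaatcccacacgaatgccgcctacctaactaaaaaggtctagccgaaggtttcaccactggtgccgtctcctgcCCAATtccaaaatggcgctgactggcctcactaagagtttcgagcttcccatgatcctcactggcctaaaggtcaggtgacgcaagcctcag
Kat8, chr7:127912267-127912515, plus strand: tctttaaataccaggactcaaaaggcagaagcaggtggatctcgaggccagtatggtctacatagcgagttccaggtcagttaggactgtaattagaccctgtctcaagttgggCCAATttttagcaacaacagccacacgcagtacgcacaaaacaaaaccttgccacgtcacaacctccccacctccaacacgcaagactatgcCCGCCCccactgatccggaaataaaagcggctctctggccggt
Kat6b, chr14:21499520-21499769, plus strand: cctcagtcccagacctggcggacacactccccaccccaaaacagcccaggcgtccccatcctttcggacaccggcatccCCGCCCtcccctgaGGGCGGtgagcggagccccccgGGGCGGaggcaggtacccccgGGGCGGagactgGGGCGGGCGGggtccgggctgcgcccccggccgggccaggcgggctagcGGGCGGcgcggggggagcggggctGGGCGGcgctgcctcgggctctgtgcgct
The Kat6b stretch held 8 GC boxes and no CCAAT box, the Kat8 stretch 1 of each, and the Kat5 and Kat7 stretches 1 CCAAT box each and no GC box. A second Kat5 stretch beside a later RefSeq start, chr19:5609790-5609851, held 2 GC boxes and is not printed, and a second one at Kat8 and at Kat6b is left out as well. In the whole 300-base RefSeq promoters (250 bases before to 50 after the start), which matched 7 of the 8 genes with 10 promoters, a GC box was found for 6 genes, a CCAAT box for 4, the ETS motif CCGGAAG for 4 and TATAAA for 0. The same motifs were found in 35.9%, 37.6%, 8.92% and 13.7% of all 32619 promoters of that length. Those shares count promoters, with or without a peak, while the counts above are of genes with 1 or 2 promoters each. The motifs are letter matches and not measured binding.

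The genes differed in base composition. Within 1 kb of the start nearest to the median summit, G and C made up 69.8% of bases at Kat6a, 67.0% at Kat6b, 66.5% at Crebbp and 62.3% at Ep300, which are at percentiles 99.3, 98.1, 97.7 and 90.7 of the 10777 genes. Kat5 had 55.7%, Kat7 52.6%, Hat1 49.4% and Kat8 49.2%, the last at percentile 16.9. Ep300 and Crebbp, both GC-rich, lay far apart in rank. The part of GC content in the ranks was addressed by an alternative fit, and values from it are given with the comparisons.

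Ep300 carried the strongest peak of the 8 genes in 10 of 12 libraries, and Kat8 the weakest in 11 of 12. The order by mean percentile over the 12 libraries was Ep300 (95.5 ± 3.97, SD), Kat7 (83.3 ± 10.5), Hat1 (68.8 ± 19.3), Kat6a (66.2 ± 14.4), Kat5 (64.0 ± 14.7), Crebbp (50.04 ± 15.6), Kat6b (48.5 ± 25.5) and Kat8 (8.18 ± 4.75). Within a library, Ep300 exceeded Kat7 by 12.2 ± 12.3 points, Kat7 exceeded Hat1 by 14.5 ± 17.7 points, and each was higher in 10 of 12 libraries, with mean differences no larger than their SD. Hat1, Kat6a and Kat5 did not differ beyond their spread (2.62 ± 23.6 and 2.14 ± 18.0 points between neighbours), nor did Crebbp and Kat6b (1.56 ± 32.8 points), while Kat5 exceeded Crebbp by 14.004 ± 15.9 points, in 10 of 12 libraries. Kat8 lay 40.3 ± 28.5 points below Kat6b and was lower in 11 of 12 libraries.

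**Figure D1:**
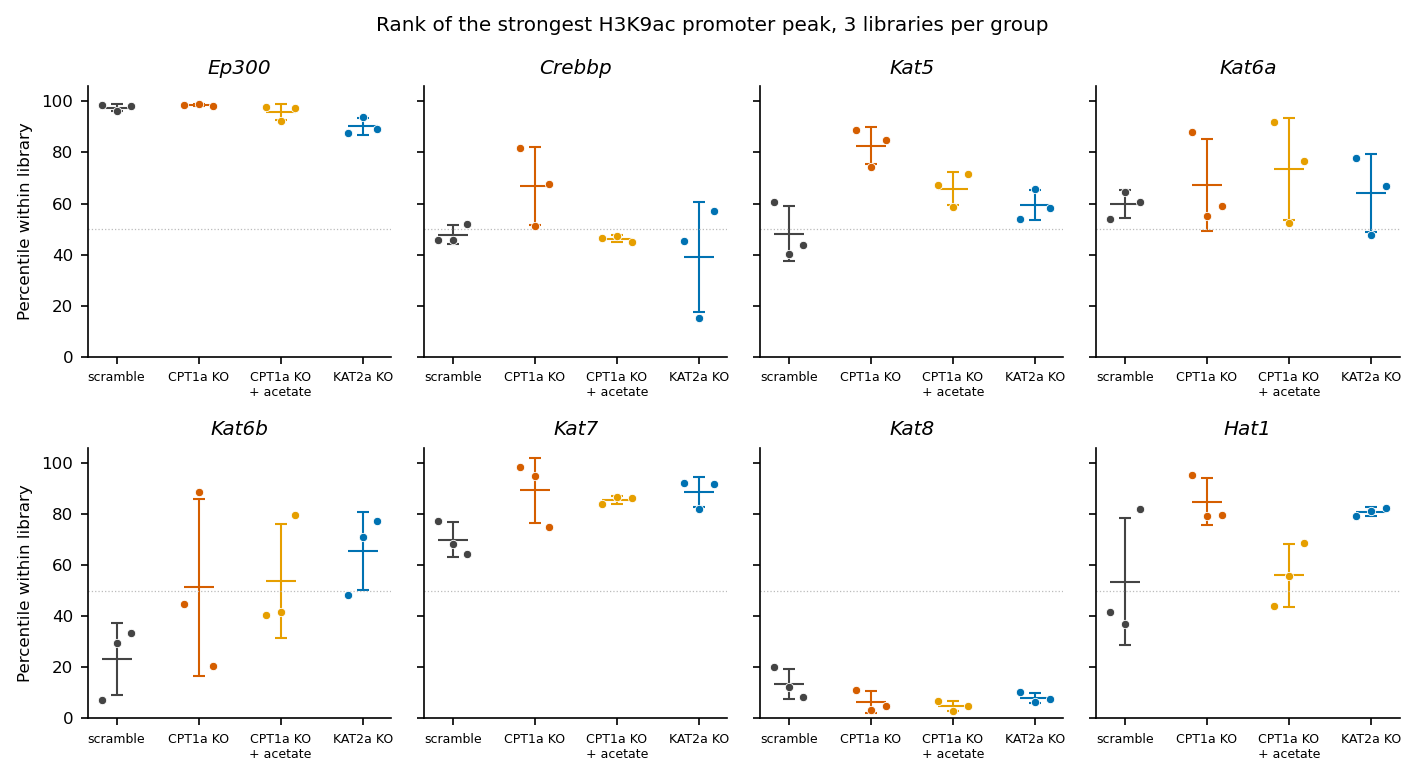
Percentile of the strongest H3K9ac promoter peak within its library (vertical axis, 0 to 100) for each gene in the 4 groups; points are libraries, and the bar with whiskers is the mean ± SD of 3. Ep300 runs from percentile 87.7 to 99.1 and Kat8 from 2.81 to 19.9 over the 12 libraries, and Kat5 is higher in the 3 CPT1a knockout libraries than in the 3 scramble libraries.

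Starting with the co-activators, Ep300 (ENSMUSG00000055024, chr15:81585351-81652077, plus strand), which encodes p300, stood at percentiles 98.5, 96.0 and 98.1 in scramble and 98.6, 99.1 and 98.4 in CPT1a knockout. The acetate libraries stood at 97.7, 92.1 and 97.4, and those of KAT2a knockout at 87.7, 93.8 and 89.0. All 3 KAT2a knockout libraries lay below all 3 scramble libraries, while the other groups overlapped with scramble. The deposited fold enrichment of the peak ran from 33.8 to 58.7. In scramble replicate 1 its summit held 170 fragments, the most of any member's peak, with a 95% Poisson interval of 145 to 198 that covers counting error only.

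Crebbp, which encodes CBP (chr16:4081328-4213997, minus strand), lay near the middle of the ranking although its protein is the closest relative of p300. It stood at percentiles 45.9, 45.5 and 52.2 in scramble, 81.8, 51.0 and 67.6 in CPT1a knockout, 46.5, 47.5 and 44.9 with acetate, and 45.3, 15.3 and 57.1 in KAT2a knockout. The 3 acetate libraries lay below the 3 CPT1a knockout libraries without acetate, and the KAT2a knockout libraries lay on both sides of scramble. Its peak was broad all the same, with a median width of 3179 bp against 3510 bp at Ep300, and both were wider than the library's median promoter peak in 12 of 12 libraries.

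Among the MYST genes, Kat5 (chr19:5603014-5610237, minus strand) encodes TIP60, the catalytic subunit of the NuA4-type complex that acetylates H4 and H2A variants. It stood at percentiles 60.6, 40.4 and 43.7 in scramble and at 88.8, 74.5 and 84.8 in CPT1a knockout. With acetate it stood at 67.2, 58.7 and 71.7, and in KAT2a knockout at 54.1, 65.9 and 58.2. The CPT1a knockout libraries lay above all 9 others. In scramble replicates 1 to 3 and KAT2a knockout replicate 3 the strongest of its promoter peaks was not at the 5′ start but at an annotated start 6271 bp into the gene, in a peak whose summit lay 4 to 256 bp from the start of Rnaseh2c, a subunit gene of ribonuclease H2 on the opposite strand. Restricted to RefSeq starts, which leave that peak out, Kat5 stood at 42.2, 34.2 and 41.9 in scramble, at 88.8, 74.6 and 84.8 in CPT1a knockout, and at 23.0 in KAT2a knockout replicate 3.

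Kat6a (MOZ, chr8:22859535-22943259, plus strand) and Kat6b (MORF, chr14:21481434-21672478, plus strand) are paralogues that acetylate H3 in complexes with BRPF scaffolds. Kat6a stood at 54.0, 64.7 and 60.5 in scramble, and the other 3 groups, at 47.6 to 92.0, each overlapped with them. Kat6b stood at 7.28, 29.6 and 33.2 in scramble, at 44.7, 88.7 and 20.3 in CPT1a knockout, at 40.4, 41.6 and 79.7 with acetate, and at 48.1, 70.8 and 77.3 in KAT2a knockout. It was the least even of the genes, with an SD of 34.6 points in CPT1a knockout, and all libraries of the acetate and KAT2a knockout groups lay above all scramble libraries.

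Kat7 (HBO1, chr11:95274259-95310246, minus strand) acetylates H3 and H4 at promoters and replication origins. It stood at 77.4, 68.2 and 64.3 in scramble, 98.4, 94.8 and 74.8 in CPT1a knockout, 83.8, 86.5 and 86.2 with acetate, and 92.1, 81.8 and 91.5 in KAT2a knockout. It was above scramble in every acetate and KAT2a knockout library, and CPT1a knockout replicate 3, the library of lowest calling depth, fell within the scramble range.

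Kat8 (MOF, chr7:127912516-127925837, plus strand), the H4 lysine 16 acetyltransferase of the MSL and NSL complexes, had the weakest peak. It stood at 19.9, 12.1 and 8.22 in scramble, 11.2, 3.23 and 4.64 in CPT1a knockout, 6.90, 2.81 and 4.83 with acetate, and 10.3, 6.55 and 7.52 in KAT2a knockout. The peak was still called in every library, at a deposited fold enrichment of 7.50 to 15.7, also at a −log10 q of at least 5. In CPT1a knockout with acetate, replicate 2, its summit held 12 fragments (95% Poisson interval 6.20 to 21.0).

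Hat1 (chr2:71388958-71441622, plus strand) stood at 41.8, 36.7 and 82.1 in scramble, 95.3, 79.1 and 79.7 in CPT1a knockout, 43.9, 55.7 and 68.5 with acetate, and 79.3, 81.0 and 82.5 in KAT2a knockout. Scramble replicate 3 stood apart from the other scramble libraries, inside the range of both knockouts. The acetate libraries lay below all CPT1a knockout libraries without acetate.

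CPT1a knockout was set against scramble with limma on normal scores of the ranks, 3 libraries a group, with Benjamini-Hochberg adjustment over the 10777 genes. Kat5 rose by 34.5 percentile points, from 48.2 ± 10.9 to 82.7 ± 7.40 (SD, n = 3), a score difference of 1.01 ± 0.25 (SE) with an adjusted p of 0.0242. It was 1 of 8 genes called higher and 0 of 8 were called lower, where 4.65% of all genes were called higher and 5.19% lower. The call was lost in 4 of the 6 fits that left out 1 library (adjusted p 0.0589 without CPT1a knockout replicate 3, 0.0634 without its replicate 1, 0.0679 without scramble replicate 2 and 0.0817 without scramble replicate 3), and after GC correction (0.0524), while the difference stayed at 30.5 to 33.4 points in those fits. With the summit pileup ranked it was called at 17.8 points. Over the settings tried other than leaving out 1 library, its adjusted p ran from 0.00110 to 0.0749. Kat5 was also the only member whose groups did not overlap, higher in CPT1a knockout, as in 15.5% of all genes (15.3% were lower). With 3 against 3 libraries such a separation is the smallest p, 0.1, that an exact permutation test can give.

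The other 7 genes did not pass the test in that comparison. Hat1 differed by 31.2 points (score difference 0.98 ± 0.35, adjusted p 0.0868 in limma) and Kat7 by 19.4 points (0.95 ± 0.33, adjusted p 0.0799). Hat1 passed when scramble replicate 3 was left out (45.5 points, adjusted p 0.0355) and Kat7 when CPT1a knockout replicate 3 was (26.6 points, 0.0185). Of all genes, 3.78% and 5.83% were called in those fits. Kat6b differed by 27.9 points and Crebbp by 18.9, with adjusted p-values of 0.239 and 0.307. Kat6b was at 9.16 points without CPT1a knockout replicate 2 and 43.3 without replicate 3, and Crebbp at 11.5 without replicate 1. With GC bins they were at 12.6 and 8.32 points, and with the summit pileup ranked Hat1 was at 11.8. The value was positive for 7 of 8 genes, as for 50.8% of all genes, Kat8 being the exception at -7.04 points. Kat8 was at -3.55 with GC bins and between -9.64 and -3.80 without 1 library. With GC bins Ep300 (-0.07 points) and Kat6a (-11.3) were negative too, and Kat6a was at -2.69 without CPT1a knockout replicate 1. Kat6a was at 7.62 points as reported, 19.3 with −log10 p ranked and 26.2 with the summit pileup ranked. As reported, the median score difference of the 8 was 0.70 against 0.01 over all genes. With −log10 p ranked, Kat6b, Kat7 and Hat1 passed beside Kat5, where 32.7% of all genes did. With the summit pileup ranked, Kat6a, Kat6b and Kat7 passed beside Kat5, where 48.6% did, and Kat7 was at 33.5 points.

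KAT2a knockout against scramble gave no call among the 8 genes, where 1.57% of all genes were called higher and 2.12% lower. In limma 4 of the 8 had an unadjusted p below 0.05, as did 21.5% of all genes. With ranks from −log10 p 2 of the 8 were called (Kat6b and Kat7), where 22.8% of all genes were, and with ranks from the summit pileup 5 of the 8, where 41.5% were. Ep300 had the smallest adjusted p, 0.125 in limma, with 90.2 ± 3.21 against 97.6 ± 1.34 (SD, n = 3), a difference of -7.42 points. Kat6b differed by 42.0 points (65.4 ± 15.3 against 23.4 ± 14.1, adjusted p 0.150), the largest of the 8 in points, Hat1 by 27.4 points (adjusted p 0.226) and Kat7 by 18.5 points (adjusted p 0.230). Kat6b and Kat7 lay above scramble in all libraries and Ep300 below it. That is 2 of 8 higher and 1 of 8 lower, where groups were apart in 14.3% and 15.0% of all genes. After GC correction, Ep300 passed in the same direction (-13.5 points, adjusted p 0.0455), where 2.46% of all genes were called. With the summit pileup ranked, Hat1 was at 4.08 points and Kat6b at 21.6.

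The knockouts were also compared with each other, since a call in one and not in the other is no test of a difference. No gene passed in KAT2a against CPT1a knockout (0% of 10777, with 1154 at an unadjusted limma p below 0.05). Ep300 came nearest of the 8, with a score difference of -0.92 ± 0.25 (p 0.00228 in limma, adjusted p 0.246), and Kat5 followed with -0.73 ± 0.25 (adjusted p 0.358). The scramble libraries enter this contrast only through the shared estimate of the spread and the choice of genes with a peak in all 12 libraries.

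**Figure D2:**
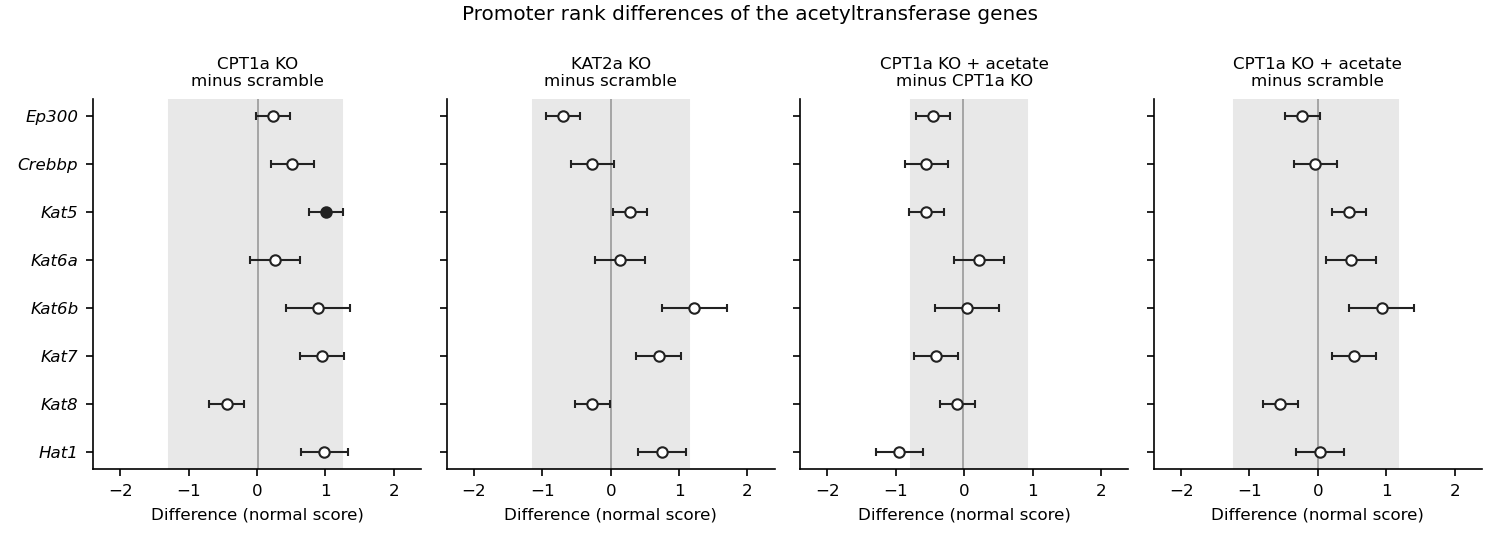
Difference in promoter rank on the normal-score scale (horizontal axis) for each gene in 4 comparisons; points are limma estimates, whiskers their standard errors, filled points have an adjusted p below 0.05, the grey band holds 95% of all genes and the grey line is their median. Kat5 in CPT1a knockout against scramble is the one filled point, and only Kat6b in KAT2a knockout and Hat1 with acetate lie outside the band.

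Acetate in CPT1a knockout spheroids was the contrast in which the largest number of the 8 genes separated, and none of them passed the test. Ep300, Crebbp, Kat5 and Hat1, 4 of 8, were lower in all 3 acetate libraries than in all 3 without, where 8.69% of all genes were lower and 5.47% higher in that way, and 0 of the 8 were higher. Hat1 differed by -28.7 points (56.0 ± 12.3 against 84.7 ± 9.15, SD, n = 3), Crebbp by -20.5, Kat5 by -16.8 and Ep300 by -2.97. Their adjusted p-values in limma were 0.468, 0.624, 0.524 and 0.616. No gene at all passed in this contrast (0% of 10777), while 9.33% had an unadjusted p below 0.05, among them Hat1 (p 0.0157) and Kat5 (p 0.0443). Without 1 library Hat1 lay between -34.9 points (acetate replicate 3 left out) and -22.6 (acetate replicate 1 left out), and it was at -17.3 with the summit pileup ranked. Crebbp lay between -28.4 and -13.0 points without 1 library, Kat5 between -20.9 and -13.2, and Ep300 between -3.94 and -1.16. With GC bins Hat1 was at -27.5 points, Crebbp at -19.1, Kat5 at -17.6 and Ep300 at -4.83.

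Against scramble, the acetate group had no member called, where 1.77% of all genes were called higher and 3.55% lower. In limma 0 of the 8 had an unadjusted p below 0.05, against 22.8% of all genes. With ranks from the summit pileup 2 of the 8 were called (Kat6b and Kat7), where 41.7% of all genes were. Kat6b (30.5 points, adjusted p 0.256 in limma) and Kat7 (15.6 points, adjusted p 0.351) lay above scramble in all libraries, and Kat8 (-8.55 points, adjusted p 0.220) below it, as 14.9% and 17.0% of all genes did. Hat1 and Crebbp, at 56.0 and 46.3 on average, differed from scramble by 2.496 and -1.57 points, and Kat5 by 17.7. This contrast shares its libraries with the comparisons above, so their values stand side by side and are not separate evidence.

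Since scramble is the control in 3 of the comparisons, its 3 libraries were also set against the other 9 by a two-sided exact permutation test over the 220 assignments, whose smallest p is 0.00455. The 9 libraries come from 3 groups and are not replicates of the same condition, here and in the summit comparison below. No gene passed after adjustment (0% of 10777, 2686 genes having an unadjusted p below 0.05). Kat7 stood at 70.0 ± 6.74 in scramble and 87.8 ± 7.22 in the others (exact permutation p 0.00909, adjusted p 0.0764, n = 3 and 9), and Kat8 at 13.4 ± 5.95 and 6.44 ± 2.92 (exact permutation p 0.0182, adjusted p 0.110). Kat5 and Kat6b differed by -21.1 and -33.5 points, scramble being lower (exact permutation p 0.0318 and 0.0409, adjusted p 0.146 and 0.171). Ep300, Crebbp and Kat6a had an exact permutation p of 0.377, 0.777 and 0.409, and Hat1 of 0.136. With ranks taken from −log10 p in place of fold enrichment, Kat7 and Kat8 had an adjusted p of 0.0264 each in this exact permutation test, which 22.6% of all genes then passed.

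The summits of the peaks lay at different places in scramble and in the other groups, a comparison added after the positions had been seen. At Ep300 the summit was 703, 833 and 699 bp from the nearest annotated start in scramble and 204 to 282 bp in the other 9 libraries. At Kat7 it was 638, 602 and 662 bp in scramble, upstream of the starts, and 93 to 205 bp in the others, inside the gene. At Hat1 it was 704, 693 and 701 bp against 297 to 541 bp. These 3 genes had no overlap between scramble and the other libraries, each with the smallest possible exact permutation p of 0.00455 (adjusted p 0.0127, n = 3 and 9).

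**Figure D3:**
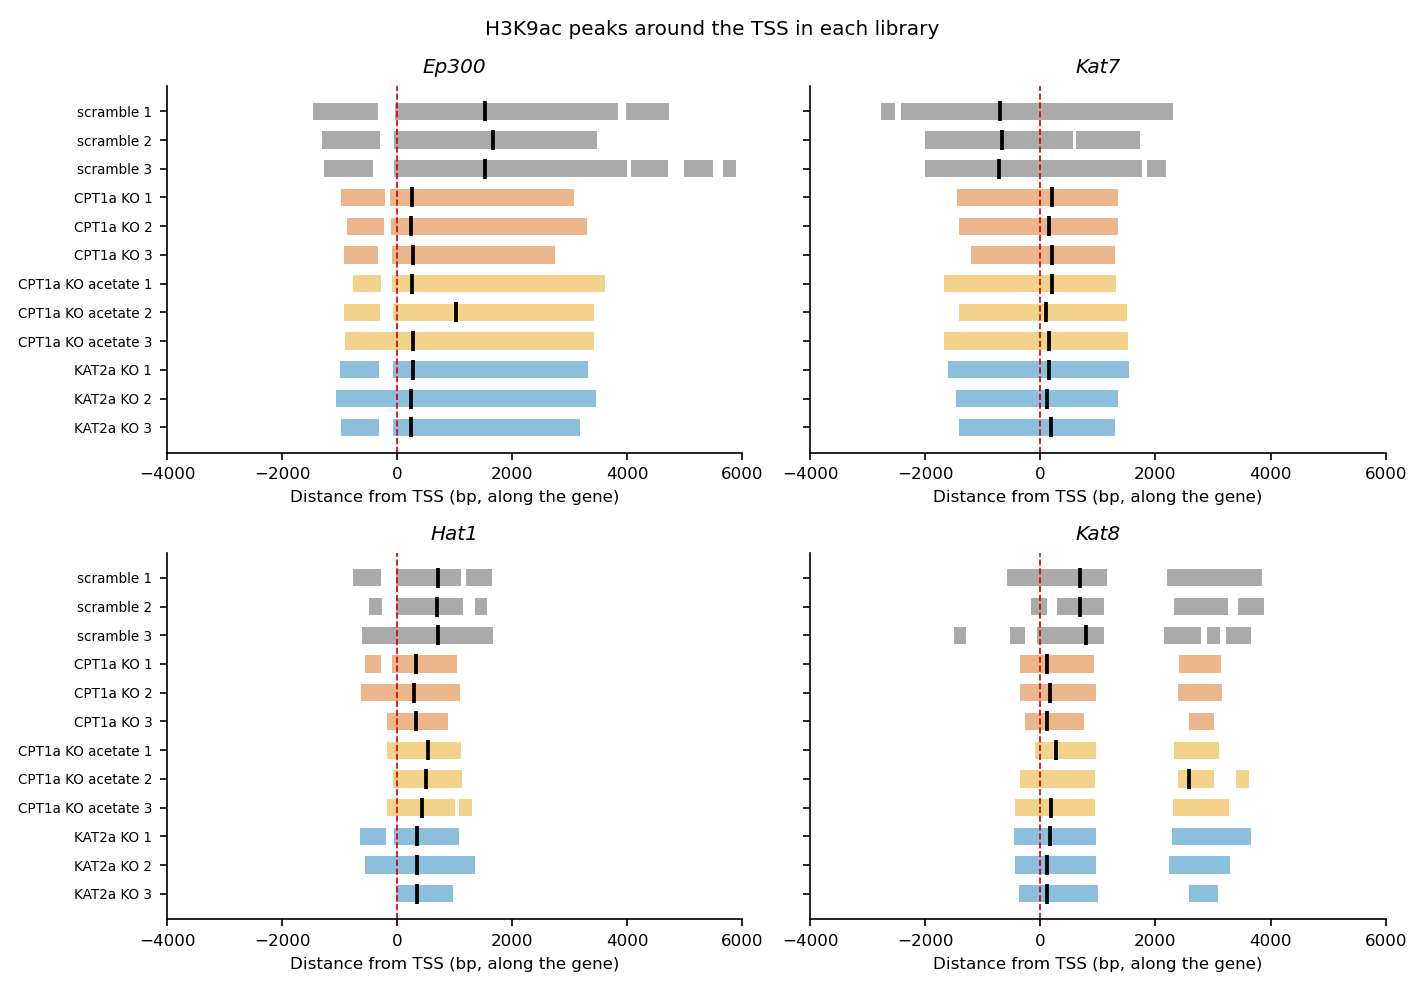
Peaks (bars) from 4 kb before to 6 kb after the start nearest to the median summit, one row per library, for Ep300, Kat7, Hat1 and Kat8; black ticks are the summit of the strongest promoter peak and the red dashed line is the start. In scramble rows the ticks sit farther from the start than in nearly all others, as at Kat7, where they lie at -719 to -659 bp, upstream, against 93 to 205 bp downstream.

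Kat6a, at 705, 788 and 1121 bp in scramble against 150 to 701 bp, was also separated, by as little as 4 bp (exact permutation p 0.0227, adjusted p 0.0420). Kat8 had its summit 692 to 797 bp from the start in scramble and 110 to 278 bp in 8 of the others. In CPT1a knockout with acetate, replicate 2, the strongest Kat8 peak was another one, 942 bp from a start downstream of the first (exact permutation p 0.0182, adjusted p 0.0353). Crebbp ranged from 380 to 1173 bp in scramble and from 216 to 442 bp in the others (exact permutation p 0.00909, adjusted p 0.0212). Kat5 had its summit at 1300 to 1552 bp in scramble, in the peak shared with Rnaseh2c, and at 2 to 64 bp in 8 of the others (exact permutation p 0.0182, adjusted p 0.0353). With RefSeq starts, which leave that peak out, Kat5 still passed, with a difference of 155 bp (adjusted p 0.0271 in the exact permutation test). Kat6b did not pass (147 to 294 bp against 117 to 252 bp, exact permutation p 0.691).

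In all, 7 of the 8 genes passed in this comparison and 4 of 8 had scramble farther than all 9 other libraries. Over all genes, 56.4% passed and 38.0% had scramble farther, so most of this pattern is shared with promoters at large, whose summits lay a median of 178 bp farther from a start in scramble. With 1 fixed start per gene 5 of 8 passed, Crebbp (adjusted p 0.0720 in the exact permutation test) and Kat8 (0.567) no longer among them, and with RefSeq starts 5 of 7, against 57.1% and 59.0% of all genes. Over whole lists scramble had the most and the narrowest peaks and, in replicate 1, the highest calling depth. At these 8 genes its strongest promoter peaks were on average wider in base pairs than in CPT1a knockout. With widths uncentred, 2841 genes were called in CPT1a knockout against scramble, 160 of them wider in the knockout. So were 101 of 313 in KAT2a knockout and 85 of 644 with acetate. The part of peak number, width and depth in the summit distance was not tested. Without the 3 libraries of calling depth below 1.2, all genes but Kat6b (7 of 8) had scramble farther than every other library left, against 43.7% of all genes, and 6 passed, against 48.0%. Leaving out 1 scramble library left 3 or 4 of the 8 passing, against 39.6% to 45.2% of all genes, with a smallest possible p of 0.0182, and Ep300, Kat6a, Kat7 and Hat1 apart from the others in each case.

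**Figure D4:**
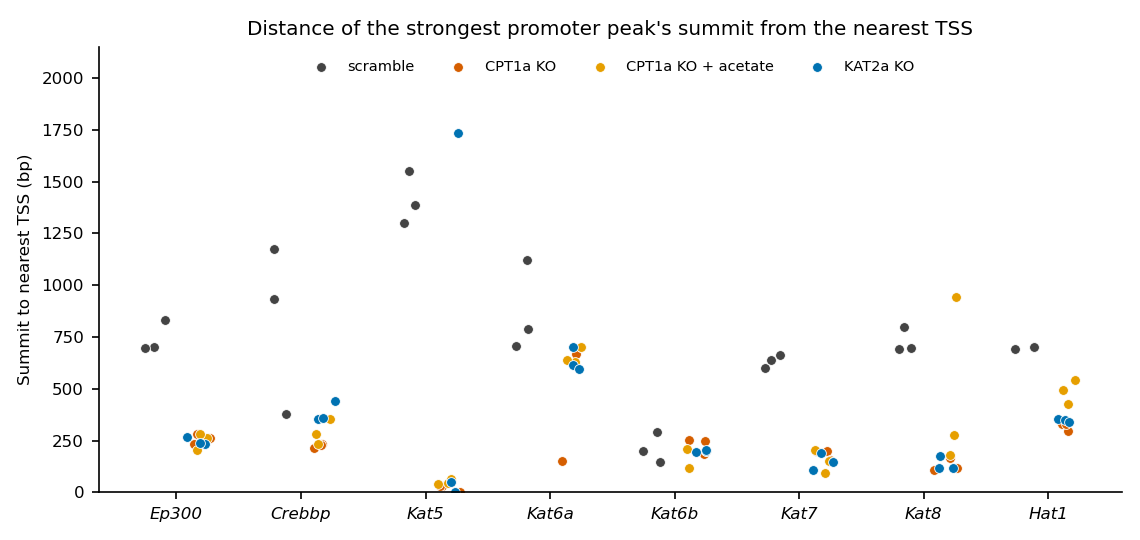
Distance in bp from the summit of the strongest promoter peak to the nearest annotated start (vertical axis) for each gene; each point is a library, with scramble to the left and the other groups to the right of each gene's mark. Scramble points lie above all others at Ep300, Kat6a, Kat7 and Hat1, and are mixed with them at Kat6b.

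Peak width set the genes apart from each other more than it did the groups. The strongest promoter peak had a median width of 3510 bp at Ep300, 3179 bp at Crebbp and 2870 bp at Kat7, each wider than the median promoter peak in 12 of 12 libraries. It was 2278 bp at Kat5, 2078 bp at Kat6a and 1872 bp at Kat6b, and 1302 bp at Kat8 and 1179 bp at Hat1, which were wider than the median in 0 and 1 of 12 libraries. Hat1 thus had a narrow peak, which ranked above the library's median in 9 of 12 libraries. Its mean percentile was 53.5 in scramble and 56.0 with acetate, against 84.7 in CPT1a knockout and 80.9 in KAT2a knockout. The width of Kat6a ran from 851 to 3849 bp. In 10 of 12 libraries its signal was split into more than 1 peak within 2 kb of the start, as it was at Ep300 in 10 and at Kat6b in 11.

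**Figure D5:**
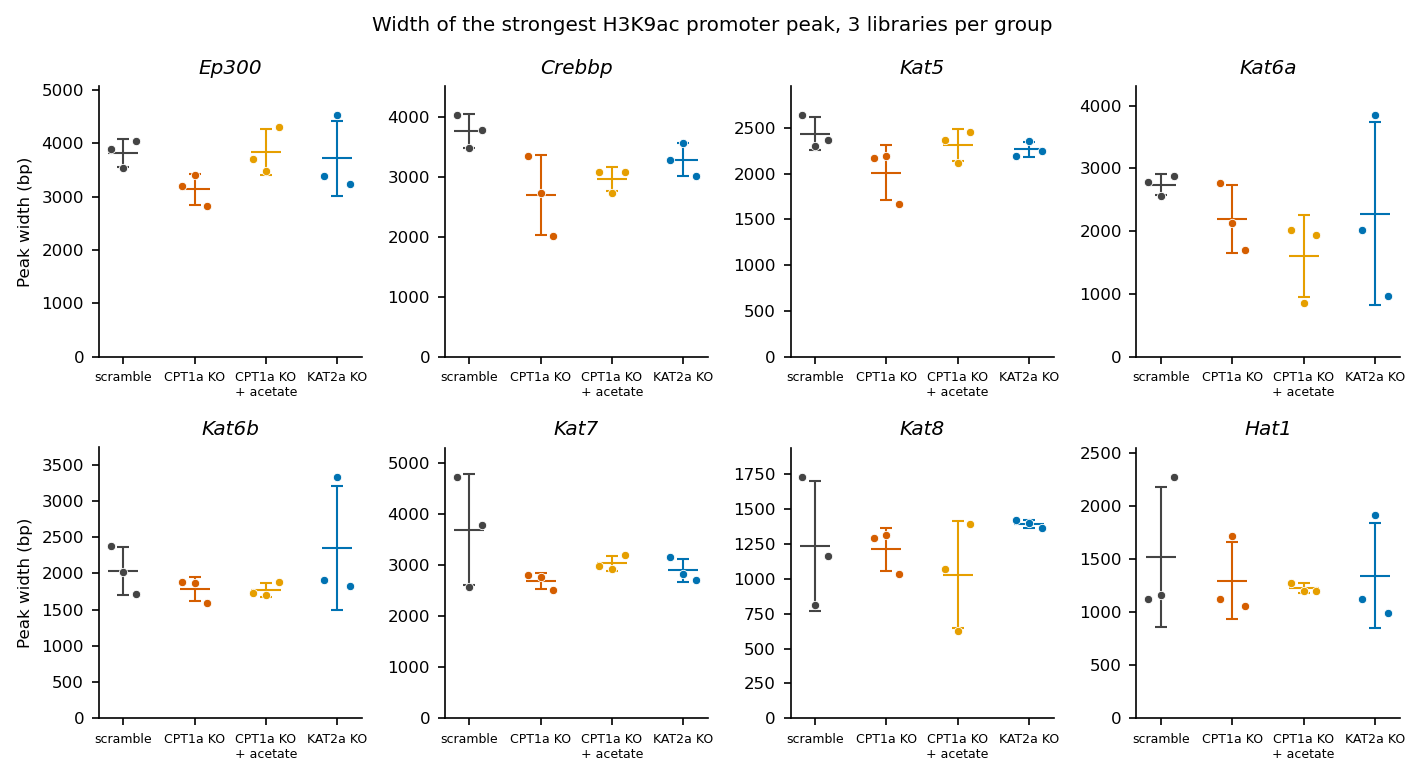
Width in bp of the strongest H3K9ac promoter peak (vertical axis, starting at 0, scaled for each gene) in the 4 groups; points are libraries, and bars with whiskers are the mean ± SD of 3. Mean widths at Ep300 range from 3139 to 3835 bp over the groups, and at Kat6a single libraries run from 851 to 3849 bp.

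Widths were tested with limma on log2 width after subtracting the library's median. No gene of the 8 passed in CPT1a knockout against scramble (14.7% of all genes called), KAT2a knockout against scramble (11.5%), acetate against no acetate (0.00928%) or acetate against scramble (9.72%), and 0 had an unadjusted limma p below 0.05. With peaks within 500 bp merged, Kat5 was called in all 3 comparisons with scramble and Kat8 in that of CPT1a knockout, where 21.0% (CPT1a knockout), 15.9% (KAT2a knockout) and 17.5% (acetate) of all genes were called. The strongest Kat5 peak was the one shared with Rnaseh2c in scramble and KAT2a knockout replicate 3. In the other libraries it lay at the beginning of the gene, so the Kat5 widths come from different peaks. Kat8 came nearest, with a log2 difference of 0.41 ± 0.21 in CPT1a knockout and 0.39 ± 0.21 in KAT2a knockout (adjusted p 0.203 and 0.229), although in base pairs the means were 1212 and 1395 against 1235 in scramble. The width at Ep300 differed from scramble by 0.09 ± 0.15, 0.10 ± 0.15 and 0.25 ± 0.15 in CPT1a knockout, KAT2a knockout and acetate (adjusted p 0.727, 0.717 and 0.322). Centring turned the direction for the knockouts, since in base pairs Ep300 was at 3825 ± 267 in scramble, 3139 ± 293 in CPT1a knockout, 3723 ± 706 in KAT2a knockout and 3835 ± 428 with acetate. In base pairs, Crebbp was at 3761 ± 277 bp in scramble and 2695 ± 667 bp in CPT1a knockout, a difference of -0.13 ± 0.13 once centred (adjusted p 0.523).

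Annotated starts far from the 5′ end mostly had no peak. Joined where their 1 kb windows overlap, the starts of Ep300 fell into 7 clusters, and the 6 that lie 27964 to 59499 bp into the gene were called in 0 libraries. Of the 5 clusters of Crebbp, the 4 beyond the first were likewise called in 0. At Kat6b the 5′-most cluster was called in 0 libraries and the cluster 18336 to 19455 bp downstream in 12 of 12, at deposited fold enrichments of 8.62 to 44.6. That is the cluster next to the GC-rich sequence printed above, with its 8 GC boxes. Kat5 had 2 clusters, both called in 12 of 12, the second being the one shared with Rnaseh2c. In gene bodies outside promoters, one region was called in all 12 libraries, chr14:21546513-21548172 in Kat6b, 65908 bp from the gene's 5′ end, at a fold enrichment of 4.85 to 10.2. A region at the 3′ end of Kat8, chr7:127925241-127926190, was called in 8 libraries, 1 of them scramble, and chr8:22862783-22864079 in Kat6a in 6, 3 of them scramble.

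Genes of the enzymes' complexes and partners, from set lists for each complex, were read in the same limma fits. Of 16 TIP60 complex genes, 4 rose in CPT1a knockout (Epc1, Epc2, Morf4l1 and Mrgbp) and 2 fell (Ruvbl1 and Morf4l2). Over all genes, 4.65% were called higher and 5.19% lower in that comparison, 1.57% and 2.12% in KAT2a knockout, and 1.77% and 3.55% with acetate, and the counts of these short lists stand against those shares. Epc2, an enhancer of polycomb scaffold, went from 34.5 ± 0.65 to 88.1 ± 1.27 (SD, n = 3, adjusted p 0.00453 in limma). The median difference of the 16 genes was 13.2 points, against 0.217 over all genes. In KAT2a knockout Morf4l1 and Mrgbp rose and Morf4l2 fell, by 40.1 points (adjusted p 0.0289 in limma), and with acetate against scramble 4 rose, among them Ep400 (45.7 points, adjusted p 0.0415), and Morf4l2 fell. Morf4l1 and Morf4l2 encode related MRG-domain subunits, and they were called in opposite directions.

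Of 12 measured p300 and CBP partners (Cited1 and Cited4 lacked a peak in some library), Ncoa1, Ncoa2 and Crtc3 rose in CPT1a knockout and none fell. Ncoa2, a nuclear receptor co-activator, went from 36.8 ± 6.61 to 77.6 ± 21.9 (adjusted p 0.0273 in limma). Hif1a, the hypoxia factor that recruits p300, fell in KAT2a knockout from 94.95 ± 3.07 to 69.4 ± 9.74 (adjusted p 0.0437) and with acetate to 56.9 ± 16.2 (adjusted p 0.0133). Of 9 subunits that serve MOZ, MORF and HBO1, Jade2 and Jade3 rose in CPT1a knockout, Jade2 from 43.5 ± 31.6 to 87.2 ± 8.93 (adjusted p 0.0410 in limma), and 0 of 9 were called against scramble in the other groups. Of 11 MSL and NSL subunits, Msl1 rose and Kansl2 and Phf20 fell in all 3 groups against scramble. Kansl2 went from 89.9 ± 8.54 to 51.3 ± 1.79 in CPT1a knockout (adjusted p 0.0104 in limma), while Kat8, the enzyme of those complexes, was not called.

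Of 7 HAT1 partners and histone chaperones, 1 was called: Asf1a, a histone chaperone, fell with acetate against scramble from 91.1 ± 6.42 to 59.2 ± 11.4 (adjusted p 0.0265 in limma). The 10 measured deacetylase genes gave 0 calls in each of the 4 comparisons, with a median difference of 2.09 points in CPT1a knockout. No list gave a call between acetate and no acetate. Among the KAT2 genes, Kat2a stood at 6.85 ± 1.07 in scramble and 46.7 ± 12.9 in CPT1a knockout (adjusted p 0.00832 in limma). It stood at 28.6 ± 14.7 in KAT2a knockout (adjusted p 0.0849), where H3K9ac at the promoter does not check the Cas9 edit in an exon.

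The genes whose ranks followed each member most closely over the 12 libraries were named by Pearson's r of normal scores, a description in which the libraries share groups and depths. They were Adrm1 (r = 0.876) and Chchd7 (0.873) for Ep300, Cnih1 (0.937) and Rbm19 (0.899) for Crebbp, Phc3 and Elk1 (both 0.816) for Kat6a, and Ctnnbip1 (0.947) and BC030867 (0.881) for Kat6b. For Kat7 they were Synj1 (0.936) and Klf13 (0.919), for Kat8 Pik3c2a (0.906) and Tm2d3 (0.896), for Hat1 Zxdb (0.878) and Ocrl (0.868), and for Kat5 Foxj3 and Frg2f1, which had the same values (0.929). Among the 8 genes themselves the highest r was 0.588 between Kat5 and Kat7 and the lowest -0.582 between Kat6b and Kat8.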

How the data were processed

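H3K9ac ChIP-seq peak lists of 12 libraries were used, and the 12 input samples were not analysed here. Per the labels the authors used Bowtie2, SAMtools, deepTools and MACS2 with the mm10 and dm6 genomes, versions not being given in the sources used here, while the methods text names BWA as the aligner. The deposited lists hold, for each peak, a display score, the fold enrichment (a ratio of summit pileup to local background), the −log10 p and −log10 q values, and the summit offset. The smallest deposited −log10 q was about 2 in each list. Counts of reads were not used, and spike-in scaling was not used here. The calling depth and the summit fragments were recovered from fold enrichment and −log10 p under the MACS2 formulas, for 98.6% to 100% of peaks.

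Each gene took its strongest promoter peak by fold enrichment. Ranks within a library were turned into normal scores and fitted for 4 groups together with limma 3.58.1 (R 4.3.3) and Benjamini-Hochberg adjustment over 10777 genes, with a threshold of 0.05. Widths were fitted the same way on the log2 scale, less the library median of these promoter peaks. Scramble was set against the other 9 libraries with exact permutation tests in Python 3.11.15 (scipy 1.17.1). In simulated data with shifts of 1 and 2 score units for CPT1a knockout against scramble, 18% and 76% of 100 changed genes were recovered by the rank fit, and 76% and 96% of shifts of 1 and 2 log2 units by the width fit. The fold enrichment was ranked because it cannot be compared between libraries directly, and a rank shows no change shared by all promoters. The 8 genes and the lists were chosen with earlier results of these data known. All 8 genes were named, with neighbours sharing a peak, the 2 genes most alike in pattern, and the most changed called gene of each partner list in each comparison with scramble; the other called partners were named after their values were seen. Alternatives were another ranked column, windows, thresholds, GC and depth correction, array weights, fewer libraries, merged peaks, uncentred widths and the replicate block.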

Additional observations from a re-analysis of the deposited data

How the results depend on the processing

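Presence of a peak at all 8 genes held at a −log10 q of at least 5, with 500 bp windows and at an equal calling depth of 0.55. Of all genes, 48.8%, 49.0% and 46.0% were called in all 12 libraries in these settings. No value changed from a call in one direction to a call in the other. Members called in CPT1a knockout against scramble were 1 as reported, 4 with −log10 p ranked (Kat5, Kat6b, Kat7 and Hat1), 4 with the summit pileup ranked (Kat5, Kat6a, Kat6b and Kat7), 0 with GC bins, 0 with only the 6 libraries compared, and 0 to 1 without 1 library. For KAT2a knockout they were 2 with −log10 p, 5 with pileup and 1 with GC bins against 0 as reported, and for acetate against scramble 2 with pileup against 0. Width calls with peaks within 500 bp merged were 2, 1 and 1 in CPT1a knockout, KAT2a knockout and acetate against scramble. Between scramble and the other 9 libraries, −log10 p gave 2 members and 2436 genes by rank, and leaving out a scramble library gave 3 to 4 members and 4268 to 4870 genes by summit distance. Over all genes, rank calls in CPT1a knockout against scramble were 1060 as reported, 3524 with −log10 p, 5146 with pileup, 550 with GC bins, 472 with the depth covariate, 390 with 6 libraries and 407 to 837 without 1 library. In KAT2a knockout they were 397 as reported, 2452 with −log10 p, 4399 with pileup, 265 with GC bins, 231 with the depth covariate, 823 with array weights, 156 with 6 libraries and 36 to 224 without 1 library. For acetate against scramble they were 574 as reported, 2698 with −log10 p, 4415 with pileup, 305 with GC bins, 226 with the depth covariate, 1067 with array weights and 124 to 379 without 1 library. For acetate against no acetate they were 0 as reported, 226 with pileup, 2 with 500 bp windows, 1 with RefSeq starts and 0 to 9 without 1 library. Width calls over all genes were 2841 uncentred and 566 to 1908 without 1 library in CPT1a knockout (1579 as reported). They were 313 uncentred, 2308 with the depth covariate and 392 to 1647 without 1 library in KAT2a knockout (1236), and 644 uncentred, 1885 merged, 1686 with the depth covariate and 371 to 1373 without 1 library for acetate against scramble (1048). For acetate against no acetate, where 1 was reported, they were 0 uncentred, 0 merged, 0 with the depth covariate, 0 with the replicate block and 0 to 3 without 1 library. The causes were not tested, and the fits that left libraries out changed both how many and which ones remained. Same-numbered libraries of different groups did not deviate together (r from -0.063 to 0.0595 over 18 pairs), so the numbers were not taken as a pairing. With the replicate block, 883 genes were called by rank in CPT1a knockout, 284 in KAT2a knockout and 431 for acetate against scramble, and Kat5 stayed called (adjusted p 0.0357 in limma). The RefSeq starts and all alternatives for summit distance were chosen after seeing the data. A rank cannot show a change that all promoters share, and the weak Kat8 peak rests on few fragments.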
